A study of Mus musculus with 8 samples.

Results

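The alpha-crystallin genes Cryaa and Cryab and 3 further genes of small heat shock proteins, Hspb1, Hspb2 and Hspb8, were followed through the chromatin loops, topologically associating domains (TADs) and CTCF peaks of the newborn mouse lens. These 5 genes were chosen by name among 20191 protein-coding genes of at least 1 kb on chromosomes 1 to 19 and X. For each gene, all loops with an anchor within 100 kb of the gene body or spanning it, all TADs touching it and all CTCF peaks within 100 kb were collected. Hi-C counts ligations between chromosomal sites held close together. It had been made, with 2 replicates each, from the epithelium and the fiber cells (fibers) of CD-1 mouse lenses at postnatal day 0.5 and from v6.5 mouse embryonic stem (ES) cells labelled WT. The lens replicates pooled 30 lenses each and crosslinking used 2.0% formaldehyde in all 3 cell types. CTCF ChIP-seq had been made from the same lens cell types, taken from 200 lenses of CD-1 mice at postnatal day 0.5. The labels list 1 sample for each, whereas the study's methods speak of biological replicates of the immunoprecipitation, and how these enter each peak list is not given in the sources used here. The lens cells came from dissection rather than from sorting, and ES cells were cultured without feeders. CTCF in ES cells was not analysed here. No marker gene expression was used here, so the labelled cell types were not checked against it.

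Small heat shock proteins share the alpha-crystallin domain, assemble into large oligomers and hold unfolding proteins in solution without using ATP. αA-crystallin, encoded by Cryaa, and αB-crystallin, encoded by Cryab, are abundant in lens fibers, where proteins are not renewed once organelles are lost. A loop in a Hi-C map is a pair of sites in contact more often than their surroundings, and many loops are held by cohesin stopped at CTCF sites. A TAD is a stretch of chromosome whose sites contact each other more than sites outside it.

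Gene positions are those of assembly GRCm38, the same genome as the mm10 build of the deposited lists, and are counted from 1. Cryaa lies on chromosome 17 at 31677931 to 31681730. Cryab lies on chromosome 9 at 50745951 to 50756636. The gene body given for Cryab holds all of Hspb2, at 50751072 to 50752354, so that these genes share every feature described below and count as 1 locus. Distances on the lower side of Cryab are counted from the end of this long gene body, and a transcript that starts above Hspb2 would lie farther from the features there. Hspb2 encodes a small heat shock protein known mainly from muscle. Hspb1, a stress-induced chaperone of the actin cytoskeleton, and Hspb8, which works with the co-chaperone Bag3 in clearing misfolded proteins, both lie on chromosome 5, at 135887919 to 135889563 and at 116408491 to 116422864. The 5 genes therefore form 4 loci.

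The RefSeq promoter table of GRCm38.p6 held 3 of the 5 genes, Cryaa, Hspb1 and Hspb8. The 250 bases before the start site are shown for Cryaa, the gene with the fiber peak of highest background described below, and for Hspb1, the only one of these 3 genes whose window held the heat shock element pattern GAANNTTC, marked in capitals. Both are on the plus strand, at chr17:31677681-31677930 for Cryaa and chr5:135887669-135887918 for Hspb1.
Cryaa: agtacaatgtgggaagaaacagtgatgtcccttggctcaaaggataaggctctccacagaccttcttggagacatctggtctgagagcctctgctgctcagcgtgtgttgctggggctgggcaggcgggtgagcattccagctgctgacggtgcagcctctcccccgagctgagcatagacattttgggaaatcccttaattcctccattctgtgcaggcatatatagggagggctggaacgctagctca
Hspb1: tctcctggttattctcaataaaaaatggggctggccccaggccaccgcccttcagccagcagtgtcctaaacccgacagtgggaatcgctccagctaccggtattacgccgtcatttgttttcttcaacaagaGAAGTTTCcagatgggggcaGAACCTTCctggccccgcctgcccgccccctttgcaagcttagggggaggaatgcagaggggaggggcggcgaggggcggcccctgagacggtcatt
The pattern reads the same on both strands. It was found at 2 places before Hspb1, GAAGTTTC beginning 117 bases and GAACCTTC beginning 97 bases before the start, and at no place in the windows of Cryaa and Hspb8. Of 32851 promoter windows of this length, 6.69% held it at least once. No CTCF summit of either lens list lay in these windows. The nearest summit to the start of Cryaa was 15.4 kb away in the epithelium and 7.75 kb away in fibers, against 10.2 kb and 10.3 kb for Hspb1 and 36.6 kb and 30.7 kb for Hspb8.

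Each Hi-C list stands for both replicates merged by the authors and each CTCF list for 1 labelled sample, so that replicate error could not be had and cell types are compared without a test. The lists held 8459 loops and 3604 TADs in ES cells, 8005 and 1796 in the epithelium, and 7682 and 2641 in fibers. There were 16433 CTCF peaks in the epithelium and 23868 in fibers. Intervals given below are exact 95% Poisson intervals of the observed contacts and cover counting error only, and features missing from a list were not called there, which does not show their absence.

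Cryaa and Cryab differed in their place relative to loop anchors and TADs. Cryaa lay beside an anchor in every cell type and at or outside the edge of TADs. Cryab lay farther from anchors than the middle gene and within a small TAD in every cell type. The nearest loop anchor was 8.27 kb from Cryaa in ES cells and in the epithelium, and 2.93 kb from it in fibers. The nearest anchor to Cryab was 88.4 kb away in ES cells, 83.4 kb in the epithelium and 43.4 kb in fibers. Distances run to the edge of an anchor. In fibers the nearest anchor to either gene was 25 kb wide, against 5 or 10 kb in the other lists. The one near Cryab belonged to a loop with a largest false discovery rate of 0.044. The next fiber anchors lay 7.93 kb from Cryaa and 71.0 kb from Cryab. Over all genes, the median distance was 14.7 kb in ES cells, 19.04 kb in the epithelium and 21.9 kb in fibers. Cryaa thus sat nearer an anchor than the middle gene in all 3 lists and Cryab farther, as did Hspb1, Hspb2 and Hspb8. As near as Cryab or nearer were 79.5% of genes in ES cells, 75.8% in the epithelium and 61.6% in fibers. An anchor within 10 kb, as at Cryaa, was found for 45.3%, 42.8% and 40.9% of genes in ES cells, the epithelium and fibers, and for none of the other 4 genes.

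The number of loops with an anchor within 100 kb was less different. Cryaa had 3 in ES cells, 3 in the epithelium and 5 in fibers, and Cryab had 3, 2 and 4. The median over all genes was 2 in each list, and 81.2%, 79% and 76.9% of genes had at least 1, as had 5 of 5 genes of the group in each list. Within 50 kb, Cryaa had 3, 3 and 4 such loops and Cryab had 0, 0 and 1.

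Around Cryaa, a pair of loops was called in all 3 cell types. Both began just past the higher end of the gene and ran away from it, so that neither spanned Cryaa. The shorter loop ended at Sik1, which encodes a salt-inducible kinase. Its anchors were 31690001 to 31700000 and 31850001 to 31860000 in ES cells and in the epithelium, a size of 160 kb. In fibers the near anchor was called 10 kb farther from Cryaa, at 31700001 to 31710000, which made the loop 150 kb. In ES cells 88 contacts were observed where the surroundings gave 38.5, a ratio of 2.29 (1.84 to 2.82). In the epithelium 45 were observed against 12.1, a ratio of 3.73 (2.72 to 4.99), and in fibers 60 against 21.1, a ratio of 2.84 (2.17 to 3.66). The ratio was highest in the epithelium. The intervals of ES cells and the epithelium overlap only from 2.72 to 2.82, and the difference was not tested.

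The longer loop of the pair ended in Hsf2bp, which encodes a partner of heat shock factor 2. It joined 31690001 to 31695000 with 32025001 to 32030000 in ES cells and the epithelium, over 335 kb. In fibers its far anchor was 5 kb farther, at 32030001 to 32035000, and held the start of Hsf2bp. The observed contacts were 47 against 10.6 expected in ES cells, 23 against 4.53 in the epithelium and 25 against 5.86 in fibers. These gave ratios of 4.42 (3.25 to 5.88), 5.08 (3.22 to 7.63) and 4.26 (2.76 to 6.30), which overlap throughout. The median ratio over all loops was 3.06 in ES cells, 3.05 in the epithelium and 2.83 in fibers, below the ratios of this loop. Those medians take in loops of all anchor widths, with a median width of 10 kb. This loop was called with anchors of 5 kb in each list, so it is not ranked against them.

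On the other side of Cryaa, no loop was shared between cell types with both anchor midpoints within 10 kb. Within 25 kb, the ES cell loop from Ndufv3 and the fiber loop from Wdr4 described here would count as shared. ES cells had a loop of 115 kb from Ndufv3, a gene of respiratory complex I, with 27 contacts against 7.25. The epithelium had a loop of 70 kb from Pknox1, a homeobox gene, to U2af1, a splicing factor gene, with 43 contacts against 18.7. Fibers had 2 loops ending nearer to Cryaa than these. The first, from Slc37a1 over 325 kb, had its anchor at 31650001 to 31675000, which holds a start of U2af1, and 83 contacts against 35.7. The second, from Wdr4 over 150 kb, had its anchor at 31660001 to 31670000 and 46 contacts against 13.1. On the higher side, where the Sik1 and Hsf2bp loops lie, a further loop of 75 kb was called in fibers between 31745001 and 31825000, 63.3 kb past the gene, with 24 contacts against 6.61.

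**Figure D1:**
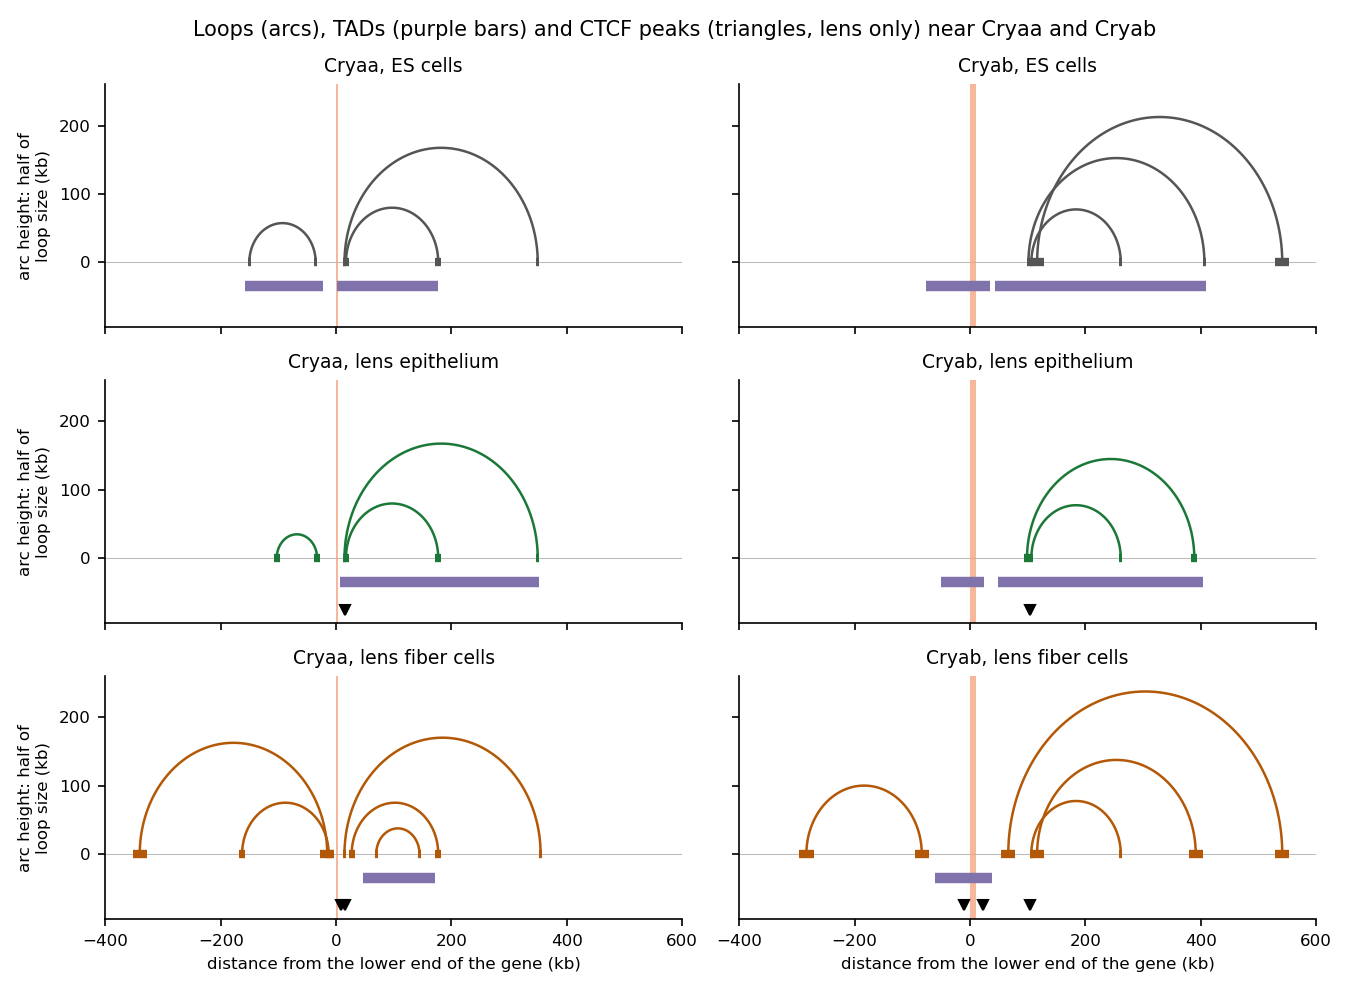
Loops with an anchor within 100 kb of Cryaa (left) and Cryab (right) in ES cells, the epithelium and fibers, as arcs over the distance in kb from the lower coordinate of the gene, with arc height growing with loop size. Thick marks on the line are anchors, purple bars TADs within 100 kb, triangles CTCF peak summits within 100 kb (lens only) and the orange band the gene. The arcs meet beside Cryaa, 2.93 to 8.27 kb from it at the nearest, and leave Cryab inside a TAD in all 3 lists.

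Around Cryab, 1 loop was called in all 3 cell types, and it ended at Sik2, a paralog of Sik1. Its anchors were the same in all 3 lists, 50850001 to 50855000 and 51005001 to 51010000, and the far anchor held the start of Sik2. The near anchor lay 93.4 kb from Cryab. In ES cells 42 contacts were observed against 9.93 expected, a ratio of 4.23 (3.05 to 5.71). In the epithelium the contacts were 26 against 5.16, a ratio of 5.04 (3.29 to 7.38), and in fibers 30 against 6.97, a ratio of 4.30 (2.90 to 6.14). The 3 intervals overlap, and differences between the ratios were not tested.

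The other loops near Cryab differed between lists at the tolerance used here, by which both anchor midpoints had to agree within 10 kb. In ES cells they ran from 50845001 over 305 kb, with 24 contacts against 4.87, and from Ppp2r1b over 425 kb to Colca2, with 93 against 41.4. Ppp2r1b encodes a scaffold subunit of protein phosphatase 2A. The epithelium had a loop of 290 kb from Alg9, a gene of protein glycosylation, with 38 contacts against 11.0. Fibers had a loop of 475 kb from Alg9 to Colca2, with 63 contacts against 25.5, and a loop of 275 kb from Ppp2r1b, with 169 against 67.5. Fibers also had the only loop within 100 kb on the lower side of Cryab. It spanned 200 kb and ended over Dlat and Dixdc1, with 119 contacts against 50.9. Several of these anchors are 25 kb wide. The near anchors of all 3 ES cell loops, both loops of the epithelium and 2 of the 4 in fibers lay between 50840001 and 50875000.

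**Figure D2:**
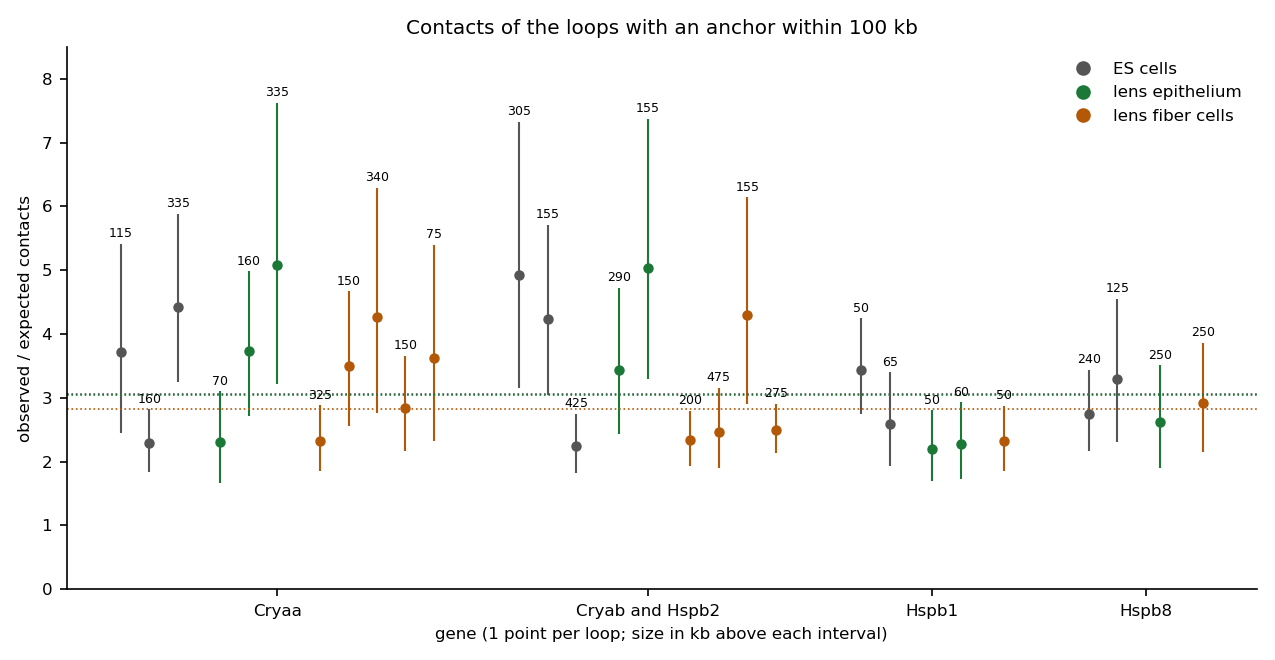
Ratio of observed to expected contacts (vertical axis, from 0) for every loop with an anchor within 100 kb of the genes, by gene and cell type, with exact 95% Poisson intervals of the observed count. The number above each interval is the loop size in kb, and the dotted lines are the medians of all loops of each list, 3.06, 3.05 and 2.83. The Hsf2bp loop of Cryaa (335 or 340 kb) and the Sik2 loop of Cryab (155 kb) stood above the median in all 3 cell types. Both were called with anchors of 5 kb, whereas the medians take in loops of all anchor widths.

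A TAD touched Cryaa in ES cells alone. That TAD ran from 31680001 to 31855000, 175 kb, and began inside the gene, 2.07 kb past its start, so that it held 1730 bases of the gene body. A TAD border inside the gene was found for 16.5% of genes in ES cells, 8.34% in the epithelium and 12.1% in fibers, and among the 5 genes for Cryaa in ES cells. In the epithelium the TAD next to Cryaa began at 31685001, 3.27 kb past the end of the gene, and reached 32030000, a size of 345 kb. In fibers the nearest TAD began 43.3 kb past the gene, at 31725001, and measured 125 kb. The ES cell and the epithelium TADs ended at the anchors of the Sik1 and the Hsf2bp loop, and the fiber TAD at the start of the Sik1 anchor. Arrowhead set borders on a grid of 5 kb here, so that offsets of 2.07 and 3.27 kb are under 1 grid step.

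Cryab and Hspb2 lay wholly inside a TAD in each list. It ran from 50670001 to 50780000 in ES cells (110 kb), from 50695001 to 50770000 in the epithelium (75 kb) and from 50685001 to 50785000 in fibers (100 kb). The epithelium TAD was the smallest and lay inside both others. A TAD touched 42.2% of genes in ES cells, 22.3% in the epithelium and 30.9% in fibers, and 13.4% of genes were touched by one in all 3 lists. Of the 4 loci, 2 were touched in each list, Cryaa and Cryab in ES cells and Cryab and Hspb8 in both lens lists.

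No loop spanned Cryab in any list, and 1 spanned Cryaa, in ES cells. It joined Wtap with the region of Yipf3 over 33.3 Mb with 22 contacts, where 0.216 were expected. A spanning loop was found for 81.8% of genes in ES cells, 61.2% in the epithelium and 59.1% in fibers.

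No called CTCF peak lay over the gene body of any of the 5 genes in either lens list, where 23.9% of genes had one in the epithelium and 35.1% in fibers. These shares are not matched for gene length, and the 5 genes are 1.28 to 14.4 kb long. The study describes, from signal tracks, raised CTCF along all of Cryaa in fibers and CTCF near its 5' end in the epithelium alone. It also reports CTCF binding in 2 regions on the 3' side of Cryaa in ES cells and in both lens cell types. Signal was not read here, and a gene body without a called peak does not show a body without CTCF. Within 100 kb, where 84.5% of genes in the epithelium and 91.8% in fibers had a peak, 5 of 5 genes had at least 1 in both. Cryaa had 1 peak in the epithelium and 2 in fibers, and Cryab 1 and 3. The median gene had 2 and 4, so that both alpha-crystallin genes had fewer than the middle gene in each list.

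The peak shared by both lens lists at Cryaa lay at the near anchor of its loops. It spanned 31693218 to 31693484 in the epithelium, 11.5 kb past the gene, with a fold enrichment of 4.66, and 31693284 to 31693553 in fibers, with 6.51. It was inside the near anchor of the Hsf2bp loop in all 3 cell types and of the Sik1 loop in ES cells and the epithelium, and the fiber peak lay 6448 bases outside the anchor that the Sik1 loop had in fibers. The second fiber peak was the nearest to Cryaa, at 31685551 to 31685830, 3.82 kb past the gene, with a fold enrichment of 4.41. No overlapping peak was called there in the epithelium. Whether this peak falls in a 3' region that the study shows in all cell types was not established here. It is thus not taken as particular to fibers.

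The peak shared by both lens lists at Cryab was also beside the near anchor of its loops, on the same side of the gene. It spanned 50849313 to 50849510 in the epithelium with a fold enrichment of 4.93, and 50849284 to 50849653 in fibers with 8.54. It ended 491 and 348 bases before the anchor of the Sik2 loop, and lay inside the anchor of the 305 kb loop of ES cells and of the 290 kb loop of the epithelium. The far anchor of the Sik2 loop held a peak in fibers and none in the epithelium. The other 2 fiber peaks flanked Cryab and had no counterpart in the epithelium. One lay in Dixdc1, at 50735064 to 50735308, 10.6 kb from Cryab, with a fold enrichment of 8.31. The other, at 50768220 to 50768683 over 1110032A03Rik and Fdxacb1, lay 11.6 kb from Cryab on its other side, with 8.77. Both were inside the TAD that held Cryab in fibers.

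Fold enrichments at shared peaks ran higher in fibers than in the epithelium over the genome too. Of 11965 overlapping pairs of peaks, 73.7% had the higher value in fibers, with a median ratio of 1.21. The ratio was 1.40 at Cryaa and 1.73 at Cryab. Over the 4 loci, 8 of 11 shared peaks were higher in fibers, with ratios from 0.827 to 2.11. With 1 peak list a cell type, these ratios carry no replicate error.

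**Figure D3:**
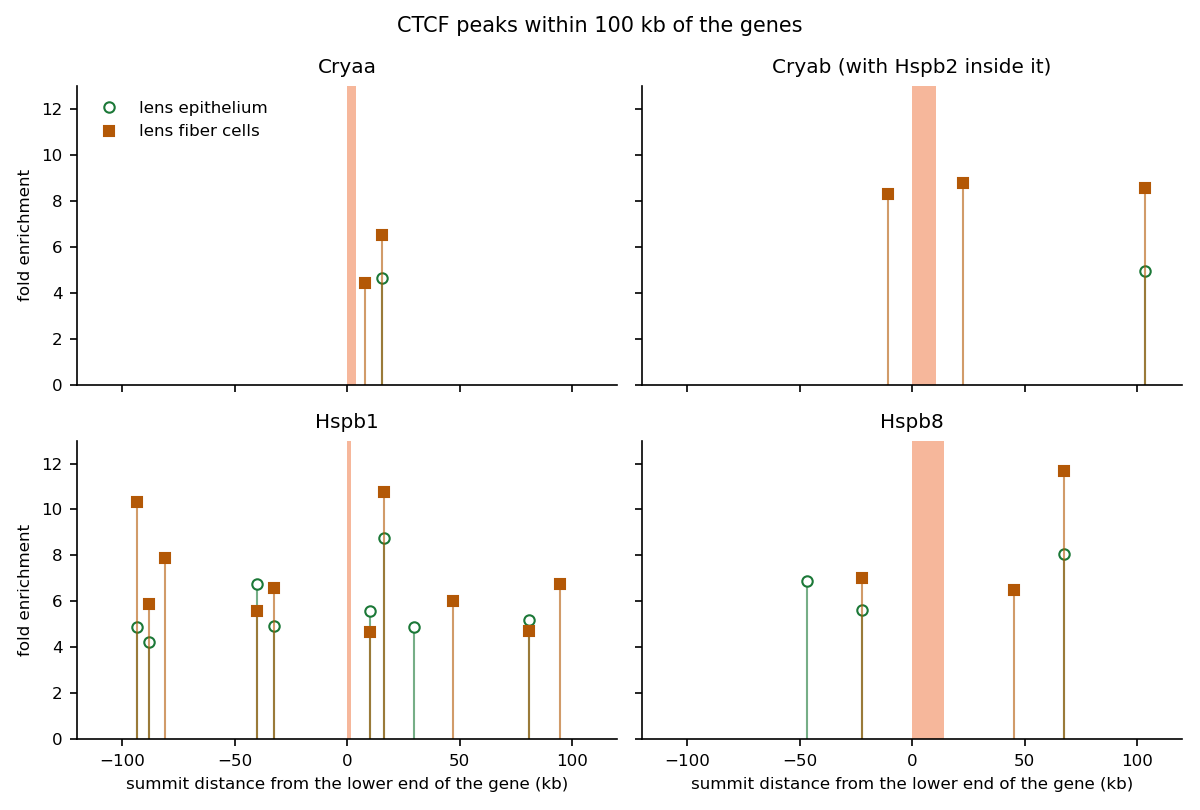
Fold enrichment of each CTCF peak within 100 kb (vertical axis, from 0) against the distance in kb of its summit from the lower coordinate of the gene, for the epithelium (open circles) and fibers (filled squares), with the gene as an orange band. No called peak stands over a gene. Cryaa has 1 and 2 peaks and Hspb1 has 8 and 10.

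The fiber peak 3.82 kb past Cryaa differed from the other peaks of the group in its surroundings. MACS2 gives each peak a fold enrichment and a −log10 p, and together these fix the number of reads stacked at the summit (the pileup) and the local background it was set against. Both were recovered here from the deposited columns as a whole-number pileup, with a relative miss of p below 1e-05, for 16429 of 16433 peaks in the epithelium and 23863 of 23868 in fibers. Above its lowest value, the background moved in whole steps, each the size of 1 read spread over 10 kb, for 100% of the values below 10, with a tolerance of 0.05 of a step. At this peak the pileup was 43 reads and the background 8.99, the level of 478 reads in 10 kb. This background was the 176th highest of 23868 fiber peaks (0.737%). The lowest background of the list, which stands for the genome as a whole, was 1.19, so that the surroundings of this peak held 7.55 times the reads of the genome at large. The median fiber peak held 1.56 times. A level of 7 times or more was reached by 191 of 23868 fiber peaks and by 170 of 16433 peaks in the epithelium. Whether these reads are those of the ChIP library or of a control was not established here. If they are ChIP reads, those of the peak itself are among them.

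The background was highest at the peak next to the gene and lower at the shared peak. At the shared peak of Cryaa, the fiber background was 3.76 with a pileup of 30 reads, or 3.16 times the genome level. In the epithelium the same peak had a background of 2.65 and a pileup of 16 reads, 1.61 times the genome level of 1.65, where the median peak had 1.37. Relative to the genome level the background at this peak in fibers was thus 1.96 times that in the epithelium. The median of this ratio over all 11965 pairs was 1.19, and 1.44% of pairs had one as high. At Cryab the fiber backgrounds were 1.77, 2.65 and 2.16, with pileups of 22, 31 and 26 reads, between 1.48 and 2.23 times the genome level. The background at Cryaa was 5.09 times that at Cryab for the fiber peak nearest each gene, 3.39 times for the highest background within 100 kb and 1.74 times for the peak shared with the epithelium. The first of these rests on which of the peaks flanking Cryab, 10.6 and 11.6 kb from the gene body, is taken as the nearest. A window of 10 kb centred on the summit of the peak nearest Cryaa takes in 1054 bases of the gene, and those centred on the other 2 peaks take in none. In fibers the windows of the nearest and the shared peak, 31680677 to 31690676 and 31688385 to 31698384, overlap. Some of the same reads can therefore enter both fiber backgrounds.

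The 795 fiber peaks with a fold enrichment within 0.1 of the 4.41 at the peak nearest Cryaa had a median background of 1.67. In reads this peak was close to the strongest peak near Hspb1, which had 44 reads on a background of 3.18 and a fold enrichment of 10.8. The cause of this background was not tested.

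**Figure D4:**
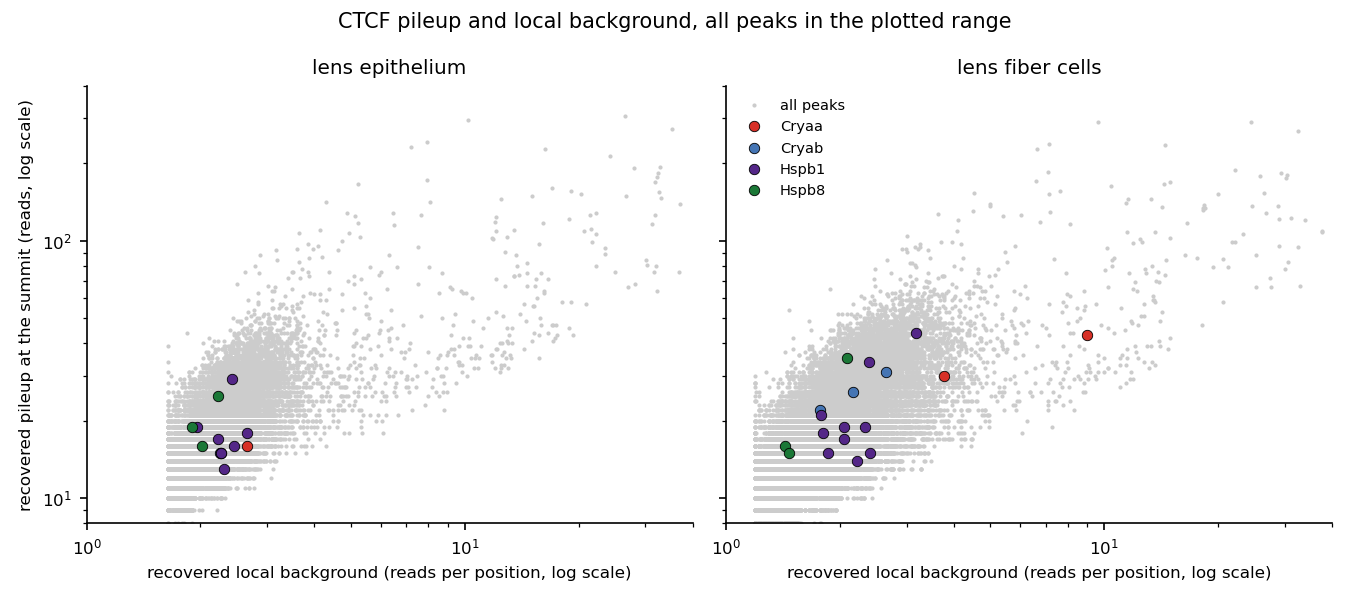
Reads at the summit against the local background in reads per position, both recovered from the deposited fold enrichment and −log10 p (log axes), for CTCF peaks of the epithelium (left) and fibers (right). Grey points are all peaks within the axes and coloured points those within 100 kb of the named genes. The fiber peak nearest Cryaa lies far to the right, at a background of 8.99, and the peaks of the other loci between 1.43 and 3.18.

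Hspb1 was the locus richest in CTCF peaks and lay between TADs. It had 8 peaks in the epithelium and 10 in fibers, of which 7 were shared. The strongest in both lay at 135903939 to 135904263 in fibers, 14.4 kb past the gene, with a fold enrichment of 10.8 against 8.77 in the epithelium. Its nearest peaks lay 8.44 and 8.60 kb away, with fold enrichments of 5.58 in the epithelium and 4.66 in fibers. No TAD touched Hspb1 in any list, as for 46.7% of genes. The gap between the TADs on its sides ran from 135870000 to 135910001 in ES cells, from 135855000 to 135975001 in the epithelium and from 135865000 to 135980001 in fibers. The gap was the narrowest in ES cells, where a TAD of 225 kb began 20.4 kb past the gene.

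The loops near Hspb1 were short, and most were shared. A loop of 50 kb at Srrm3, the neighbouring gene of a splicing regulator, was called in all 3 cell types. Its ratio of observed to expected contacts was 3.43 (2.74 to 4.24) in ES cells, 2.19 (1.69 to 2.80) in the epithelium and 2.32 (1.85 to 2.88) in fibers. The loop was called with anchors of 5 kb in ES cells and of 10 kb in both lens lists, so that the ES cell ratio comes from a smaller pixel and is not ranked against the others. CTCF peaks of both lens lists lay in both its anchors as called in lens cells. A loop of 65 kb in ES cells and 60 kb in the epithelium began at Zp3, a gene of the egg coat, with ratios of 2.59 (1.94 to 3.40) and 2.27 (1.73 to 2.93), and was not called in fibers. These anchors too were 5 kb wide in ES cells and 10 kb in the epithelium.

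Hspb8 lay in a TAD and under a loop that both lens lists held and the ES cell list did not. In both lens lists it lay inside a TAD of 1055 kb, at 116030001 to 117085000 in the epithelium and 116035001 to 117090000 in fibers, and no TAD touched it in ES cells. A loop of 250 kb from Ccdc60 to Srrm4, a neural splicing regulator gene, spanned Hspb8 in both. Its anchors in fibers lay 10 kb lower than in the epithelium. The observed contacts were 44 against 16.8 in the epithelium, a ratio of 2.61 (1.90 to 3.51), and 48 against 16.5 in fibers, a ratio of 2.92 (2.15 to 3.87). In ES cells, 2 loops of 240 and 125 kb from Ccdc60 ended 38.5 and 48.5 kb from the lower end of Hspb8, without reaching over it. Hspb8 is on the minus strand, so this end is the one away from its start. Larger loops of 975 kb in the epithelium and of 950 and 825 kb in fibers also spanned Hspb8.

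CTCF peaks near Hspb8 numbered 3 in each lens list, of which 2 were shared. The strongest lay in Srrm4, at 116476035 to 116476341 in fibers, with a fold enrichment of 11.7 against 8.06 in the epithelium. It lay inside the higher anchor of the 250 kb loop in fibers and the epithelium peak lay 3711 bases outside the anchor called there. A peak of the epithelium at 116361355 to 116361645, with a fold enrichment of 6.89, had no counterpart in fibers and lay in an anchor of the 240 kb loop of ES cells. A peak of fibers at 116453482 to 116453690, with 6.49, had none in the epithelium.

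Very long loops passed over both chromosome 5 genes in ES cells. Hspb1 was spanned by 5 ES cell loops of 19.1 to 33.1 Mb and by no lens loop. Hspb8 was spanned by 6 ES cell loops of 13.2 to 91.3 Mb, 1 of which, from Barhl2 to Uncx over 33.1 Mb, spanned both genes. The 10 distinct loops reused a few anchors. Of their 20 ends, 4 lay at Lhx5, 4 at Uncx, 3 at Barhl2, 2 at Nkx6-1, 2 at Tbx3, 1 each at Tbx5, Cnpy1 and Tnrc18, and 2 at no protein-coding gene. The 10 loops had 15 to 28 contacts where 0.172 to 2.79 were expected. The 91.3 Mb loop, which began at Cnpy1, was also called in fibers, with 14 contacts against 0.371. Over all genes, the median number of spanning loops of any size was 2 in ES cells (quartiles 1 and 4) and 1 in each lens list. Limited to loops of up to 3 Mb, no loop spanned Hspb1 in any list, and 0, 2 and 3 spanned Hspb8 in ES cells, the epithelium and fibers. With this limit the median over all genes was 0 in each list.

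Counting each loop near the group once, the lists held 10 in ES cells, 8 in the epithelium and 11 in fibers. In each list, 4 of these were found in both others, the Sik1 and Hsf2bp loops of Cryaa, the Sik2 loop of Cryab and the Srrm3 loop of Hspb1. Another was shared by ES cells and the epithelium, at Zp3, and a further one by both lens cell types, over Hspb8. The Cryaa pair and the Hspb8 loop count as shared with fibers through the midpoint tolerance. At least 1 fiber anchor of each did not overlap its counterpart. The remaining 5, 2 and 6 loops had no counterpart in another list. The same shares over all loops of each list are not given here. These counts are thus not read as particular to the group. In the epithelium, an anchor within 100 kb held a CTCF peak called in that tissue for 4 of 5 genes, all but Hspb8, against 48.7% of all genes. In fibers this held for 3 of 5, Cryaa, Hspb1 and Hspb8, against 62.9%. With Cryab and Hspb2 counted once, these are 3 of 4 loci in each lens list. The shared fiber peak at Cryab missed the anchor by the 348 bases given above.

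Among the 5 other small heat shock protein genes, Hspb3, Hspb6, Hspb7, Hspb9 and Odf1, none had a CTCF peak over the gene body in either list. Near loops were found for 5 of 5 in ES cells and 4 of 5 in each lens list. Hspb6, known from smooth and heart muscle, was the one without them, with 5 and 6 CTCF peaks within 100 kb. A TAD touched 2 of these genes in ES cells and none in either lens list. In 12 genes of larger chaperones and heat shock factors, a near loop was found for 10 in ES cells, 6 in the epithelium and 10 in fibers. Hspa1a lies beside Hspa1b and Hspd1 beside Hspe1, so the 12 genes are fewer loci. These neighbours all had near loops in ES cells and fibers and none in the epithelium. A TAD touched 3, 2 and 2 of the 12. Over all genes, the shares in ES cells, the epithelium and fibers were 81.2%, 79% and 76.9% for a near loop. For a TAD they were 42.2%, 22.3% and 30.9%. Of that list, 2 genes had a CTCF peak over the gene body in fibers, Hsp90ab1 over 5.47% of its length and Dnajb1 over 4.20%, and none had one in the epithelium.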

How the data were processed

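The lists came from Hi-C of 3 cell types, with 2 replicates each, and CTCF ChIP-seq of lens epithelium and lens fiber cells, with 1 labelled sample each (the methods of the study give 2 biological replicates). The authors aligned reads with BWA (build mm10 in the submitters' processing notes), kept Hi-C pairs of high mapping quality, merged replicates, and called loops with HiCCUPS (juicer_tools 2.13.06 per the file headers) and TADs with Arrowhead. The deposited loop lists hold a raw count of observed contacts, expected contacts made from the surroundings, and q-values (false discovery rates) as the authors' HiCCUPS run gave them. The authors called CTCF peaks with MACS2, and each deposited peak has a score, a fold enrichment (a ratio to the local background) and its p-value and q-value, both as −log10. Library depth was not used here.

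From these, distances, overlaps of at least 1 bp and loops shared within 10 kb at both midpoints were computed in Python 3.11.15 using scipy 1.17.1, pandas 2.3.3 and numpy 2.4.6, with plots from matplotlib 3.10.9. A loop spans a gene when its anchor midpoints lie on either side. Pileup and background were recovered from fold, (pileup + 1)/(background + 1), and the Poisson tail. Both steps were tested on simulated data (300 of 300 genes and 2000 of 2000 peaks recovered). Gene bodies are those of GRCm38.p6, and share of all genes means protein-coding genes of at least 1 kb. The genes and lists were chosen with earlier results of these data known. Genes named are the members, 2 fixed lists of related genes, and protein-coding genes at anchors or under CTCF peaks of the members. The recovered background was added after the data were seen. Since no called peak covers Cryaa, genes of like peak coverage were not sought.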

Additional observations from a re-analysis of the deposited data

How the results depend on the processing

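No paired analysis was possible because each list pools its replicates or stands for 1 labelled sample, so that neither a replicate block nor leaving out a replicate could be fitted. Of 69 alternatives over 29 results, 39 left the value the same or within 1.5 times, 30 moved it and 0 reversed it. Counts and ratios cannot be reversed, and a difference of 0 has no sign to reverse, so the lack of reversals does not show stability. The CTCF peak difference in the epithelium, given below, took both signs. The Cryaa minus Cryab difference in near loops, 0 in ES cells, 1 in the epithelium and 1 in fibers, was 3 in each list within 50 kb and 1, 3 and 4 within 200 kb. With all 4 FDRs below 0.01 it was 0 in the epithelium and 2 in fibers, and by anchor midpoints 1 in ES cells and 2 in fibers. The difference in spanning loops in ES cells fell from 1 to 0 without loops above 3 Mb. The TAD difference in ES cells went from 0 to -1 where the TAD had to hold the whole gene, and in both lens lists from -1 to 0 for TADs of at least 200 kb, since the TADs at Cryab are smaller. The CTCF peak difference went from 0 to 1 within 50 kb and -1 within 200 kb in the epithelium, and from -1 to 0 and -2 in fibers. With anchors widened by 5 kb, 5 rather than 3 genes had a fiber CTCF peak at an anchor. When anchors had to overlap, each count of 4 or 5 near loops shared with the fiber list fell to 2, the Sik2 and Srrm3 loops, without the Cryaa pair. Within 25 kb the loops with no counterpart went from 5 to 3 in ES cells and from 2 to 1 in the epithelium. Chosen after seeing the data, the ratio of fiber backgrounds, 5.09 at the nearest peaks, was 3.39 between the highest peaks and 1.74 between the shared peaks, and 1.18 at the shared peaks in the epithelium.

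Limits are the single pooled list per cell type, loop and TAD positions on a grid of 5 kb, and 1 CTCF peak list per lens cell type without replicate error. A feature missing from a list was not called there, which does not show its absence.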
